A study of Mus musculus with 74 samples.

Results

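Pcna encodes the ring-shaped sliding clamp that holds DNA polymerases on their template, and a proliferating cell cannot copy its genome without it. It counts among the essential genes, and the lung tumours that carried a guide against it are described here. Members were all tumours whose construct held the Pcna guide in place 1 or place 2, except those with the same guide in both places and those with the guide named NE or a spike-in. There were 30978 such tumours of 378754 in all, 27502 of them in KT mice, 1215 in KT_H11_Cas9 mice and 2261 in KT_H11_LSL-Cas9 mice. A further 646 Pcna tumours with the same guide in both places and 1575 with NE were left out by that rule.

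Lung tumours were initiated by lentiviruses, each with Cre, a barcode and a pair of guide RNAs, and the lungs of 74 mice were harvested after about 3 months. Every mouse had the background that the labels abbreviate KT, which includes the R26 LSL-Tomato reporter, so that Cre marked the tumour cells. The 9 KT mice had no Cas9 and their guides could not cut, the 45 KT_H11_Cas9 mice made Cas9 from the H11 locus, and in the 20 KT_H11_LSL-Cas9 mice Cre first had to remove a stop cassette. These names are the genotypes given per mouse, while the growth protocol spells both Cas9 strains with LSL. The labels used here state neither age nor viral dose. Each tumour was listed with its reads and with its cells, estimated by the authors from spike-in barcodes. The number of tumours listed for a mouse was 13191 to 41166 in KT, 1013 to 5364 in KT_H11_Cas9 and 4 to 4941 in KT_H11_LSL-Cas9, where mice 3 and 7 held under 20 each. Total reads, spike-ins included, were 1471487 to 11272802, 125661 to 6384705 and 27551 to 1185772. Mice are the replicates throughout, and the label permutations treat them as independent.

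Cas9 cuts are mostly repaired by end joining, which often shifts the reading frame but can also leave it intact, and some cells are not cut at all. A cell with a guide against an essential gene can therefore keep a working copy. The pool held 1 Pcna guide, in both places, so guide and gene cannot be told apart. Its sequence, its cut site and the state of the Pcna alleles in each tumour were not analysed here. In bulk lung DNA, a tumour that never formed and a tumour too small to be listed cannot be told apart either. The smallest tumour listed for a mouse had 50.4 to 56.2 cells in KT and 50.1 to 105.1 in KT_H11_Cas9. In KT_H11_LSL-Cas9, mice of under 20 tumours included, it had 50.4 to 369.3 cells.

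In KT mice the Pcna guide was carried by 14.1% of tumours in the lowest mouse, 14.5% in the median mouse and 15.1% in the highest of 9. In the 45 KT_H11_Cas9 mice that share was 0.304% in the lowest, 0.971% in the median and 2.93% in the highest. In the 18 KT_H11_LSL-Cas9 mice with at least 20 tumours it was 3.88%, 4.88% and 5.83%. The 3 groups did not overlap: no Cas9 mouse reached the lowest KT mouse, and 18 of 18 KT_H11_LSL-Cas9 mice lay above the highest KT_H11_Cas9 mouse. Of all tumour cells pooled by group, Pcna tumours held 14.4% in KT, 0.108% in KT_H11_Cas9 and 1.14% in KT_H11_LSL-Cas9. Per mouse, the cell shares of the Cas9 groups did overlap. They were 0.0134 to 0.598% in KT_H11_Cas9 and 0.316 to 3.88% in the 18 KT_H11_LSL-Cas9 mice.

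**Figure D1:**
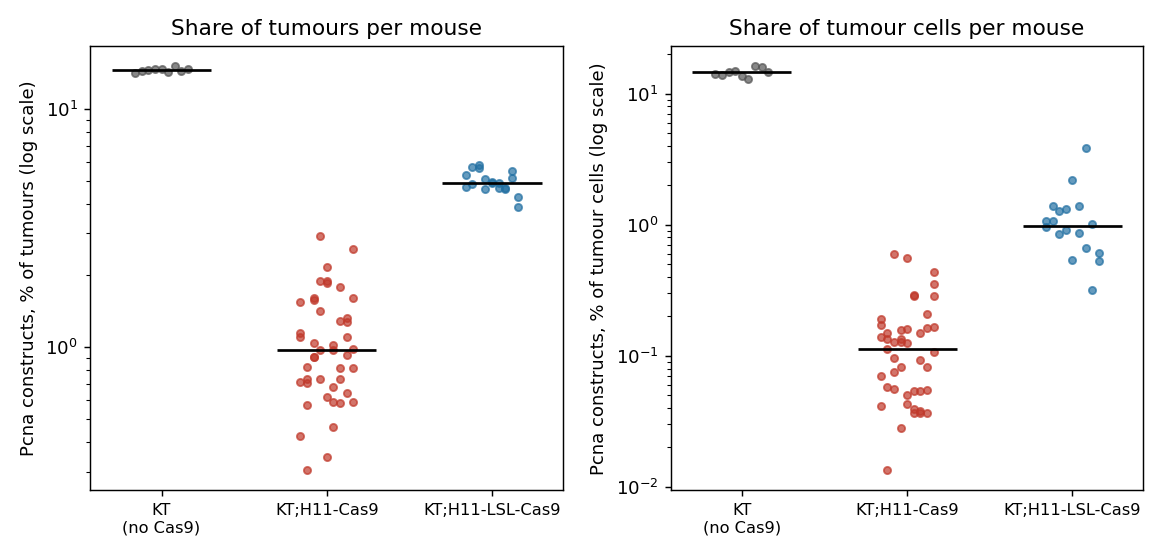
Pcna constructs as a percentage of tumours (left) and of tumour cells (right) in each mouse, both on log axes, with 1 point per mouse and a line at the group median. On the left, KT mice lie at 14.1 to 15.1%, KT_H11_LSL-Cas9 mice of at least 20 tumours at 3.88 to 5.83% and KT_H11_Cas9 mice at 0.304 to 2.93%, with no overlap. On the right, KT mice lie at 13 to 16.2%, above all Cas9 mice. There the Cas9 groups overlap, at 0.316 to 3.88% and 0.0134 to 0.598%.

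The first comparison asked how many tumours survive when the Pcna guide stands beside an inert guide (safe, NT or EGFP). The yardstick was the number of tumours with 2 inert guides in the same mice. Per inert/inert tumour, KT mice held from 2.64 to 3.15 Pcna/inert tumours (median 2.9, 4256 against 1466 in all). KT_H11_Cas9 mice held from 0 to 0.688 (median 0.148, 190 against 1107), and 1 of these mice held none. The 17 KT_H11_LSL-Cas9 mice with at least 5 inert/inert tumours held from 0.235 to 1.62 (median 0.917, 361 against 400 over all 20 mice). No mouse with Cas9 reached a KT mouse, while 14 of the 17 KT_H11_LSL-Cas9 mice lay above every KT_H11_Cas9 mouse.

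Relative to KT, Pcna tumours fell to 0.0591-fold in KT_H11_Cas9 (95% interval 0.0471 to 0.0742, log2 -4.08 ± 0.17, SE over 45 and 9 mice, label permutation, Benjamini-Hochberg adjusted p = 0.0226). In KT_H11_LSL-Cas9 they fell to 0.311-fold (0.271 to 0.357, log2 -1.69 ± 0.10, 20 and 9 mice, label permutation, adjusted p = 0.0202). Both comparisons use the same KT mice. When the difference was divided by its standard error before permuting (the studentised permutation), adjusted p was 3.4e-05 and 0.00323. By the first test 35.3% of the 17 genes were called lower in each Cas9 group, and by the studentised test 47.1% and 29.4%. KT mice held many more tumours than Cas9 mice, so a sum over a permuted group depends on how many KT mice fall in it. For that reason both tests are given below.

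Pcna was the lowest of the 17 genes in both Cas9 groups. Next in KT_H11_Cas9 came Lkb1, a kinase that restrains growth through AMPK, at log2 -1.17 ± 0.07, then Kmt2b, a histone methyltransferase, at -1.05 ± 0.10, and Keap1, which targets NRF2 for degradation, at -0.97 ± 0.07. These 3 also had the profile nearest to Pcna over its 16 genotypes, at root-mean-square distances of 2.8 (Lkb1), 2.91 (Kmt2b) and 2.98 (Keap1) log2 units, so even the nearest gene was far away. In KT_H11_LSL-Cas9 the genes after Pcna were Kmt2b at -0.61 ± 0.18, Keap1 at -0.50 ± 0.09 and Lkb1 at -0.37 ± 0.09. The ranges of 2 SE around those 3 genes overlap in each group, while Pcna lay over 1 log2 unit below all of them.

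The fall was larger with KT_H11_Cas9 than with KT_H11_LSL-Cas9. The ratio of Pcna/inert to inert/inert tumours differed by log2 -2.39 ± 0.19 between them (0.19-fold, 95% interval 0.146 to 0.247, 45 and 20 mice, label permutation, adjusted p = 8.5e-05 by either test). Of the 17 genes, 41.2% were called lower in KT_H11_Cas9 in this comparison by the plain test and 29.4% by the studentised one. The names of KT_H11_LSL-Cas9 mice begin with letters found in no other group, and those letters and the genotype cannot be told apart. Where spike-ins totalled near 300000 cells, the difference was -2.02 ± 0.25 (label permutation, adjusted p = 8.5e-05).

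The size of the fall also differed between mice of the 2 spike-in totals, a difference that was not tested. The KT mice near 100000 cells all have names in SL and those near 300000 names in LA, so letters and total cannot be told apart in KT. In KT_H11_Cas9 it was -4.55 ± 0.20 near 100000 cells (25 against 5 KT mice, studentised permutation, adjusted p = 0.000127) and -3.69 ± 0.23 near 300000 cells (20 against 4, studentised permutation, adjusted p = 0.00085). The Pcna share of tumours there was 0.304 to 1.89% (median 0.816%) and 0.573 to 2.93% (median 1.2%), so the mice of the 2 totals overlap. In KT_H11_LSL-Cas9, all of it near 300000, the value was -1.67 ± 0.11 (studentised permutation, adjusted p = 0.0017). The plain permutation passed in none of these 3 subsets (adjusted p = 0.108, 0.141 and 0.456).

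Pcna tumours were fewer in every size class, with lower values in the larger classes. Counting Pcna with any partner against all other tumours with an inert guide, KT_H11_Cas9 mice held 0.0874-fold of the KT level at 50 to 100 cells (429 tumours) and 0.0727-fold at 100 to 200 cells (411). The value was 0.0524-fold at 200 to 500 (270), 0.0403-fold at 500 to 1000 (69) and 0.0194-fold at 1000 cells or more (36). In KT_H11_LSL-Cas9 the same classes gave 0.369, 0.329, 0.293, 0.203 and 0.178-fold (776, 722, 547, 120 and 96 tumours). Each step between neighbouring classes was downward in both groups. Over all sizes the values were 0.063-fold (log2 -3.99 ± 0.13) and 0.31-fold (-1.69 ± 0.04). The reference for any partner includes gene/inert tumours. Of those, 9.77% had at least 1000 cells in KT_H11_Cas9, 7.48% in KT_H11_LSL-Cas9 and 17.3% in KT, against 5.6%, 4.75% and 17.1% of inert/inert tumours. Beside inert guides alone the KT_H11_Cas9 values were 0.076-fold at 50 to 100 cells, 0.0827-fold at 100 to 200 and 0.015-fold at 1000 or more, the last from 3 tumours. In KT_H11_LSL-Cas9 they ran from 0.464-fold to 0.179-fold at 500 to 1000 cells and 0.246-fold above that, where 15 tumours were left. The steps between classes were not tested.

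**Figure D2:**
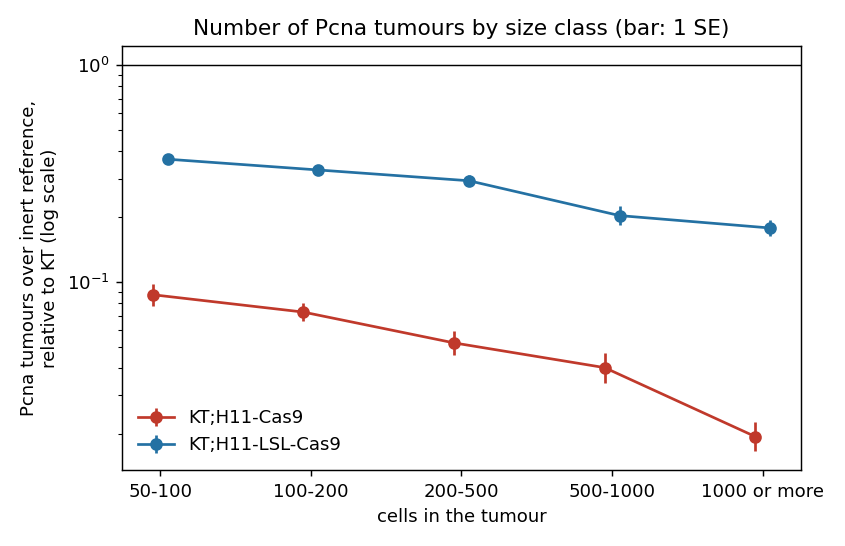
Pcna tumours with any partner over tumours with an inert guide and no Pcna guide, relative to KT, by size class in cells, on a log axis with 1 SE over mice. From the smallest to the largest class the value goes from 0.0874 to 0.0194 in KT_H11_Cas9 and from 0.369 to 0.178 in KT_H11_LSL-Cas9.

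The next comparison asked whether any second cut changed how many Pcna tumours survived. All 16 pairs with Pcna lay below inert/inert in both groups, from log2 -4.52 ± 0.21 (Lkb1) to -3.24 ± 0.22 (Ccnl2) in KT_H11_Cas9 and from -2.06 ± 0.36 (Kat7) to -1.22 ± 0.27 (Ccnl1) in KT_H11_LSL-Cas9 among the 15 partners described. The median over the 16 Pcna pairs was -4.15 and -1.73, against -0.67 and -0.28 over all 136 pairs. In KT_H11_LSL-Cas9 16 of 16 passed the label permutation (adjusted p up to 0.0316), where 34.6% of all pairs were called lower, and 16 of 16 passed the studentised one (27.2% of all pairs). In KT_H11_Cas9 none of 16 passed the label permutation (adjusted p up to 0.0969), against 8.82% of all pairs. All 16 passed the studentised permutation there (adjusted p up to 0.0347, against 59.6% of all pairs).

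Tumour number was lower with Pcna beside every partner. The step from partner/inert to partner/Pcna, Cas9 minus KT, was below 0 for 16 of 16 partners in both groups. Among those described it ran from 0.0404-fold (Nf1) to 0.133-fold (Meaf6) in KT_H11_Cas9 and from 0.225-fold (Nf1) to 0.471-fold (Keap1) in KT_H11_LSL-Cas9. The median step was log2 -3.79 and -1.64. Steps were not tested on their own, since the pairs and interactions were.

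Of the RAS and MAPK genes, Nf1, a RAS GTPase-activating protein, gave a step of -4.63 ± 0.22 in KT_H11_Cas9 (88 Pcna tumours) and -2.15 ± 0.11 in KT_H11_LSL-Cas9 (155). Rasa1, another protein of that kind, gave -4.11 ± 0.19 (102) and -1.92 ± 0.11 (164). Of the p53 and cell cycle genes, p53, which halts the cycle after DNA damage, gave -3.99 ± 0.15 (135) and -1.87 ± 0.09 (203). Rb1, the brake on entry into S phase, gave -4.38 ± 0.28 (60) and -1.49 ± 0.10 (139). None of these 4 genes gave a step nearer to 0 than that beside an inert guide by over 2 SE of the difference.

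The steps nearest to 0 in KT_H11_Cas9 belonged to Meaf6, Kmt2b, Ccnl2, Keap1 and Lkb1, of which all but Ccnl2 (-0.07 ± 0.09) lay well below inert/inert by themselves. The tumours of the partner beside inert enter both values. Keap1 gave -3.33 ± 0.18 (94 Pcna tumours) and -1.09 ± 0.12 (223), and Lkb1 gave -3.35 ± 0.22 (68) and -1.67 ± 0.15 (137). Kmt2b gave -3.06 ± 0.40 from 18 tumours and -1.11 ± 0.31 from 34. Meaf6, a subunit of histone acetyltransferase complexes, gave -2.92 ± 0.50 and -1.33 ± 0.48, but from 8 and 13 tumours. Of the other chromatin genes, Setd2 and Kmt2a methylate histones and Kat7 acetylates them. Setd2 gave -3.89 ± 0.20 (90 tumours) and -1.67 ± 0.14 (175), while Kmt2a and Kat7 had 11 to 27 Pcna tumours per group and SEs of 0.38 to 0.56. Of the Wnt pathway genes, Apc, which promotes destruction of beta-catenin, gave -3.66 ± 0.25 and -1.61 ± 0.14, and Rnf43, a ubiquitin ligase that removes Wnt receptors, gave -4.10 ± 0.19 and -1.53 ± 0.15. The cyclin L genes, which act in RNA splicing, gave -3.72 ± 0.50 (Ccnl1) and -3.16 ± 0.24 (Ccnl2) in KT_H11_Cas9, and -1.09 ± 0.35 and -1.35 ± 0.23 in KT_H11_LSL-Cas9.

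**Figure D3:**
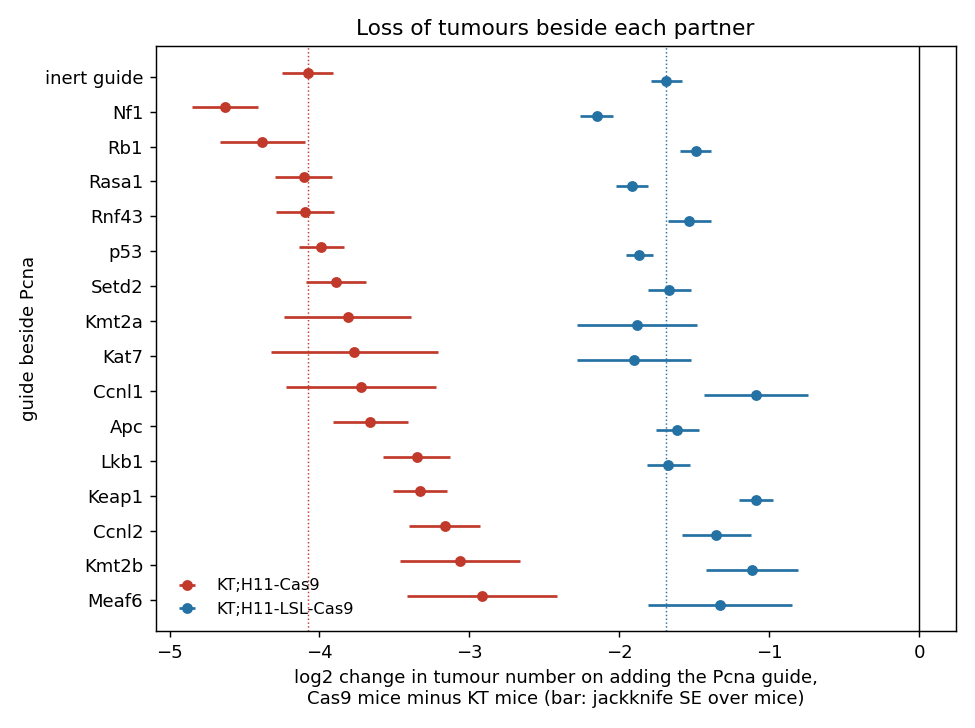
Log2 change in tumour number on adding the Pcna guide to an inert guide or to each of 15 partners, Cas9 minus KT mice, with jackknife SE over mice; dotted lines mark the value beside inert guides. Every point lies below 0, from -4.63 (Nf1) to -2.92 (Meaf6) in KT_H11_Cas9 and from -2.15 (Nf1) to -1.09 (Keap1) in KT_H11_LSL-Cas9.

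Whether a pair departed from the product of its single effects was tested as an interaction. By the label permutation 0 of 16 interactions with Pcna were called in either group, against 0% of all 136 pairs in each (2 and 7 of the 16 at an unadjusted p under 0.05). By the studentised permutation 1 was called in KT_H11_Cas9, against 1.47% of all pairs, and 0 in KT_H11_LSL-Cas9, against 0% (5 and 2 of the 16 at an unadjusted p under 0.05). The one called was Keap1, at log2 0.75 ± 0.18 above the product (studentised permutation, adjusted p = 0.0279), and in KT_H11_LSL-Cas9 it lay at 0.60 ± 0.17 (studentised permutation, adjusted p = 0.107). Higher values in KT_H11_Cas9, not called, were those of Meaf6 (1.165 ± 0.468), Kmt2b (1.020 ± 0.392) and Ccnl2 (0.917 ± 0.253) (studentised permutation, adjusted p = 0.454, 0.381 and 0.366). Nf1 had the lowest values, -0.55 ± 0.18 and -0.47 ± 0.18 (studentised permutation, adjusted p = 0.366 and 0.293). The median interaction of Pcna was 0.29 in KT_H11_Cas9, against 0.08 over all pairs, and 0.05 in KT_H11_LSL-Cas9, against 0.08. All 16 interactions of a group subtract the same Pcna/inert effect, whose SE was 0.17 and 0.10. They can therefore shift together, and the medians were not tested.

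The same data read from the partner's side show how much a partner changed tumour number once Pcna was also targeted. In KT_H11_Cas9 the 15 partners ranged from log2 -1.17 to 0.44 beside an inert guide and from -0.44 to 0.85 beside Pcna. The highest beside Pcna was Ccnl2, which went from -0.07 ± 0.09 beside inert to 0.85 ± 0.23. Keap1 went from -0.97 ± 0.07 beside inert to -0.22 ± 0.17 beside Pcna, Lkb1 from -1.17 ± 0.07 to -0.44 ± 0.20, and Nf1 from 0.44 ± 0.06 to -0.11 ± 0.18. In KT_H11_LSL-Cas9 Keap1 went from -0.50 ± 0.09 to 0.10 ± 0.16 and Nf1 from 0.25 ± 0.08 to -0.22 ± 0.15, whereas Lkb1 was at -0.37 ± 0.09 and -0.36 ± 0.16. These are the interactions above in other terms and are no separate test.

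Fewer of the remaining Pcna tumours held the guide in place 1 in Cas9 mice than in KT mice. In KT mice 52.4 to 54.9% of Pcna tumours (median 54.8%) carried the guide in place 1. Among the 41 KT_H11_Cas9 mice with at least 10 Pcna tumours the share was 13.3 to 54.5% (median 38.1%), and 38 of them lay below the lowest KT mouse. Among 18 KT_H11_LSL-Cas9 mice it was 31.2 to 50% (median 43.4%), and all 18 lay below the lowest KT mouse. KT mice held 1677 to 5357 Pcna tumours each, against at most 80 in a KT_H11_Cas9 mouse and 209 in a KT_H11_LSL-Cas9 mouse. The shares of single Cas9 mice thus scatter more by sampling, and these counts of mice are descriptive.

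Beside inert guides, Pcna in place 1 fell to 0.0413-fold in KT_H11_Cas9 (log2 -4.60 ± 0.16) and in place 2 to 0.0863-fold (-3.54 ± 0.22). The corresponding values in KT_H11_LSL-Cas9 were 0.251-fold (-1.99 ± 0.12) and 0.402-fold (-1.32 ± 0.11). Place 1 was the lower one beside 5 of 5 inert guides in both groups, for instance 0.0463 against 0.104-fold beside safe_V1 in KT_H11_Cas9, from 53 and 62 tumours. The other guides had fewer tumours there, down to 2 in place 1 and 10 in place 2 beside safe_V3. All 5 share the same mice and the same inert/inert reference, so they are not replicates. The difference between places was -1.06 ± 0.21 in KT_H11_Cas9 (label permutation, adjusted p = 0.245; studentised, 0.0265) and -0.68 ± 0.12 in KT_H11_LSL-Cas9 (label permutation, adjusted p = 0.107; studentised, 0.0208). Of the 16 genes in both places, the label permutation called 0% in either group, and the studentised one called 25% in KT_H11_Cas9 and 6.25% in KT_H11_LSL-Cas9, where Pcna was the one gene called. Also called in KT_H11_Cas9 were Keap1 at -0.349 ± 0.088, Nf1 at 0.248 ± 0.070 and Setd2 at 0.355 ± 0.074. Kmt2b lay at -0.657 ± 0.221 in KT_H11_Cas9 and -0.414 ± 0.221 in KT_H11_LSL-Cas9 and was not called (studentised permutation, adjusted p = 0.0674 and 0.423).

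Within mice of 1 spike-in total the place difference was -0.72 ± 0.37 and -1.29 ± 0.24 in KT_H11_Cas9 and -0.68 ± 0.12 in KT_H11_LSL-Cas9, none of them past the threshold (studentised permutation, adjusted p = 0.809, 0.188 and 0.366). Among tumours of at least 1000 cells it was 0.38 ± 1.71 and -0.04 ± 0.87, too few tumours to give a direction. With all partners together it was -0.99 ± 0.08 (455 tumours in place 1, 760 in place 2) and -0.64 ± 0.07 (977 and 1284). Those values have label permutation p = 0.07 and 0.00603, unadjusted. Of the 15 partners found in both places, 14 had fewer Pcna tumours relative to KT with Pcna in place 1 in KT_H11_Cas9, all but Ccnl2, and 11 did in KT_H11_LSL-Cas9. Rasa1, picked after its values were seen, had 25 tumours in place 1 against 77 in place 2 in KT_H11_Cas9, where KT had 991 and 1047.

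**Figure D4:**
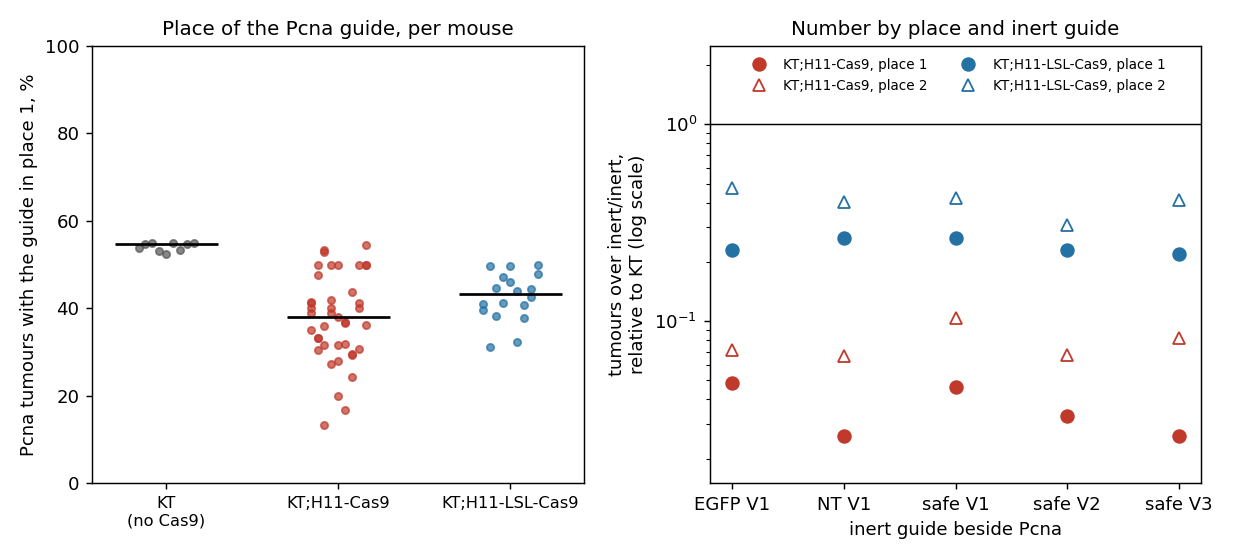
Left, percentage of each mouse's Pcna tumours that held the guide in place 1, for mice with at least 10 Pcna tumours, with a line at the median; right, Pcna tumours beside each of 5 inert guides over inert/inert tumours relative to KT, on a log axis, filled for place 1 and open for place 2. KT mice lie at 52.4 to 54.9% and 18 of 18 KT_H11_LSL-Cas9 mice below them. The place 1 value is the lower one beside every inert guide, in KT_H11_Cas9 from as few as 2 tumours (safe_V3).

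The remaining Pcna tumours were also smaller. In KT the median Pcna/inert tumour had 293.5 cells and the median inert/inert tumour 274.8. The medians were 133.3 against 163.9 cells in KT_H11_Cas9 and 132.5 against 164.1 in KT_H11_LSL-Cas9. Tumours of at least 1000 cells made up 19% of Pcna/inert tumours and 17.1% of inert/inert tumours in KT, 1.58% (3 tumours) and 5.6% in KT_H11_Cas9, and 4.16% (15) and 4.75% in KT_H11_LSL-Cas9. Pcna tumours thus had the lower median in both Cas9 groups but not in KT.

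Size was tested within mice as the mean log2 cells of Pcna/inert minus inert/inert tumours. In 9 KT mice the difference ranged from -0.05 to 0.32 (mean 0.10 ± 0.04, exact sign-flip permutation, adjusted p = 0.398), with 0% of 17 genes called smaller. In the 13 KT_H11_Cas9 mice that had 5 or more tumours of both kinds it ranged from -1.10 to 0.90 (median -0.58, mean -0.43 ± 0.16, 11 of 13 below 0, sign-flip permutation, adjusted p = 0.0367, with 5.88% of genes called). In 16 KT_H11_LSL-Cas9 mice it ranged from -1.06 to 0.60 (median -0.28, mean -0.32 ± 0.10, 15 of 16 below 0, sign-flip permutation, adjusted p = 0.0423, with 5.88% of genes called). Both calls were lost with the median in place of the mean (adjusted p = 0.0821 and 0.0825, sign-flip permutation). Among tumours of at least 200 cells the KT_H11_LSL-Cas9 value was -0.058 ± 0.20 in 9 mice (exact sign-flip permutation, adjusted p = 0.842). Set against KT mice, the differences of -0.53 ± 0.17 and -0.42 ± 0.11 did not pass (label permutation, adjusted p = 0.0775 and 0.0717).

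**Figure D5:**
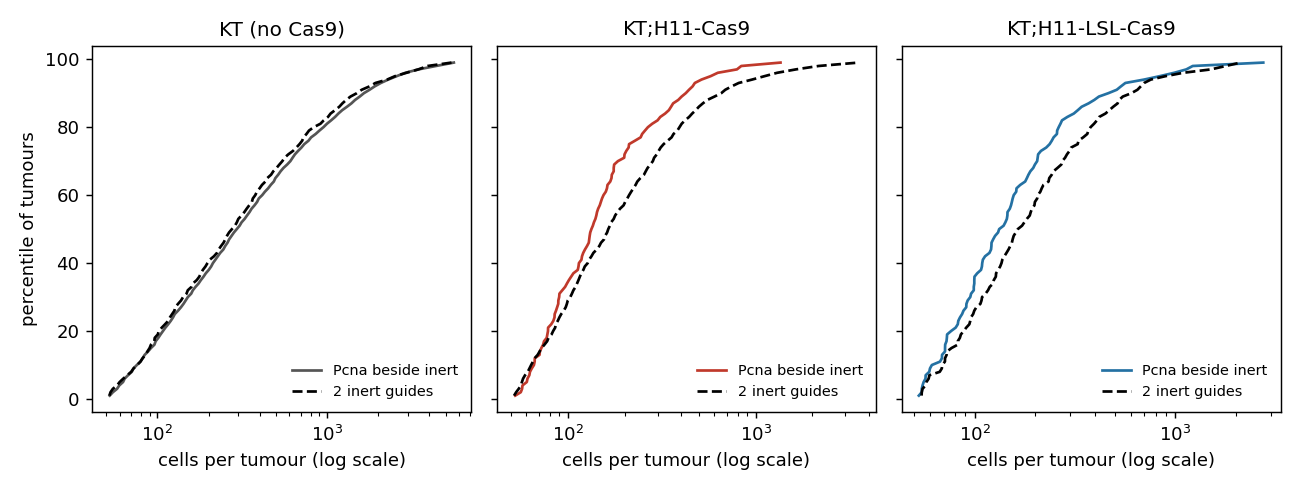
Percentiles of cells per tumour, on a log axis, for Pcna beside an inert guide (solid) and for 2 inert guides (dashed) in each group. The medians are 293.5 and 274.8 cells in KT, 133.3 and 163.9 in KT_H11_Cas9, and 132.5 and 164.1 in KT_H11_LSL-Cas9.

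More tumours enter when each Pcna tumour is set against tumours with the same partner beside an inert guide in its own mouse. That partner-matched difference was 0.01 ± 0.01 in KT (range -0.07 to 0.04, 27502 tumours, 9 mice, exact sign-flip permutation, adjusted p = 0.758, 0% of genes called). In KT_H11_Cas9 it was -0.43 ± 0.05, that is 0.74-fold (range -1.04 to 0.49, 1204 tumours, 40 of 44 mice below 0, sign-flip permutation, adjusted p = 2.83e-05, against 17.6% of genes called smaller). In KT_H11_LSL-Cas9 it was -0.27 ± 0.04, that is 0.827-fold (range -0.49 to 0.14, 2249 tumours, 17 of 18 mice below 0, sign-flip permutation, adjusted p = 8.5e-05, against 5.88%). Against KT mice the differences were -0.44 ± 0.05 and -0.28 ± 0.04 (label permutation, adjusted p = 0.00068 and 0.00017), where 11.8% and 5.88% of genes were called. The Cas9 groups differed by -0.16 ± 0.06, which did not pass (label permutation, adjusted p = 0.129, 5.88% of genes called).

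For single partners, 9 of the 16 Pcna pairs in KT_H11_Cas9 and 12 in KT_H11_LSL-Cas9 had a size value against inert/inert in at least 2 mice. Pairs with the fewest mice could not be called whatever their values. Rasa1 with Pcna lay below 0 in 4 of 4 KT_H11_Cas9 mice at p = 0.125, the lowest that an exact sign flip over 4 mice allows. Such pairs count among those tested. Apc with Pcna was called in KT_H11_LSL-Cas9 (log2 -0.65 ± 0.12, 13 of 13 mice below 0, sign-flip permutation, adjusted p = 0.0066), the one pair called smaller there, 0.909% of those tested. In KT_H11_Cas9 0.943% of pairs were called, and none was a Pcna pair with a partner described here. Keap1 with Pcna lay there at -0.59 ± 0.11, below 0 in 6 of 6 mice (exact sign-flip permutation, adjusted p = 0.0712). Its unadjusted p of 0.0312 is the lowest that an exact sign flip over 6 mice allows. Median cells of Pcna tumours with a partner were below those of the partner beside inert for 14 of 16 partners in KT_H11_Cas9 and 13 of 16 in KT_H11_LSL-Cas9, against 10 of 16 in KT. For p53 the medians were 119.5 against 183.2 cells and 142.3 against 166.5 cells, and for Rnf43 145.8 against 168.2 and 178.9 against 154.0 cells. By place the medians with any partner were close, 130.1 (place 1) and 131.8 cells (place 2) in KT_H11_Cas9 and 135.9 and 142.7 cells in KT_H11_LSL-Cas9.

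A few tumours with the Pcna guide nonetheless grew large. In KT_H11_Cas9 36 of 1215 had at least 1000 cells (2.96%, in 24 of 45 mice) and 7 had at least 5000. In KT_H11_LSL-Cas9 96 of 2261 did (4.25%, in 17 of 20 mice), and 13 had at least 5000. In KT 17.4% had at least 1000 cells. Pcna constructs thus made up 0.323% and 2.7% of all tumours of at least 1000 cells in the Cas9 groups, against 14.6% in KT. Place 1 held 13 of the 36 and 42 of the 96.

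The largest Pcna tumour of KT_H11_Cas9 was beside the inert guide safe_V2, with the Pcna guide in place 1, in mouse 12. It had 64500 cells from 27609 reads, was the 28th largest of the 4856 tumours used in that mouse, and held 15% of all Pcna tumour cells of its group. Others among the 10 largest of that group carried Lkb1 (17600 cells), Rnf43 (13874 and 4428 cells), Nf1 (9504 and 8849 cells), Kmt2a (3628 cells) and the inert guide safe_V1 (3456 cells). In KT_H11_LSL-Cas9 the 10 largest included Rb1 (26182 and 6253 cells), Apc (11455 cells), Nf1 (9075 cells) and Rnf43 (8485 and 8015 cells), and the largest single tumour held 16.3% of all Pcna tumour cells of its group. The partners named from both lists were thus varied, but the lists given here are incomplete, as 1 partner is not reported here. Whether any of these tumours had an intact Pcna allele was not analysed here.

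Reads behind Pcna tumours were somewhat fewer than behind controls. The median Pcna tumour had 20 reads in KT_H11_Cas9 and 11 in KT_H11_LSL-Cas9, against 25 and 13 for inert/inert tumours, and 65 against 63 in KT. In KT_H11_Cas9 9.96% of Pcna tumours had 5 reads or fewer, against 6.05% of inert/inert tumours, and in KT_H11_LSL-Cas9 17.6% did, against 13.2%. The part of reads in the numbers was not tested. Among tumours of at least 200 cells the number beside inert guides was log2 -4.75 ± 0.27 and -2.19 ± 0.23 relative to KT.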

How the data were processed

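The authors deposited 1 table in which each row is a tumour with its mouse, its pair of guides, its reads and its cells. The deposited read counts are raw and were used for depth alone. The deposited cell numbers are a signal, reads scaled by the authors to spike-in barcodes, whose 3 main entries total near 100000 or near 300000 cells per mouse. No label or file header used here says how reads became this table. Per the labels' protocols, barcode and guides were amplified from 32 µg of lung DNA.

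The 379042 entries left 342937 tumours once spike-ins, NE and 6757 same-guide constructs were removed. Number effects are log2 of summed tumours over summed inert/inert tumours, Cas9 minus KT, with jackknife SE over mice and 100000 label permutations of the difference, plain or over its standard error. The 95% intervals come from that SE. A step is the pair effect minus the partner's effect, and an interaction is the pair effect minus both single effects. Size effects are within-mouse differences in mean log2 cells, with at least 5 tumours (and at least 3 reference tumours when partner-matched), tested by sign flips, exact under 10 mice. P-values were adjusted by the Benjamini-Hochberg method over all genes, pairs or genes by place, with calls under 0.05. The number test of single genes (KT_H11_Cas9 against KT, plain and studentised) was run on simulated numbers. The size tests were run on shuffled sizes of KT_H11_LSL-Cas9 mice. Pairs, interactions and place were not simulated, and the outcomes are not given here. Analyses ran in Python 3.11.15 with scipy 1.17.1, numpy 2.4.6, matplotlib 3.10.9 and pandas 2.3.3.

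All 16 partners were to be named, in groups by pathway, with the 3 genes nearest in number profile and the 10 largest Pcna tumours per Cas9 group; 1 partner is counted but not reported here. The members, lists and tests were chosen with earlier results of these data known. The studentised test for pairs, interactions and place, and its use under other settings, were added after the data were seen.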

Additional observations from a re-analysis of the deposited data

Results flagged for a closer look

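The 2 Cas9 groups differed in 3 values, each by a permutation of mouse labels between them. The number of Pcna tumours beside an inert guide differed by log2 -2.395 (KT_H11_Cas9 minus KT_H11_LSL-Cas9, adjusted p = 8.5e-05). With any partner, over tumours with an inert guide and no Pcna guide, it differed by -2.296 ± 0.134 (1215 and 2261 Pcna tumours, permutation p = 1e-05, the lowest that this number of permutations allows). The ratio of place 1 to place 2 with any partner differed by -0.346 ± 0.108 (permutation p = 0.00923), while beside inert guides alone that difference was -0.39 ± 0.23 and did not pass (permutation, adjusted p = 0.626). The letters that begin the mouse names and the genotype cannot be told apart in these 3 comparisons. No KT mouse stood apart from the other 8 in Pcna share, number, place or size by Dixon's test, which was not run on groups of more than 10 mice.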

How the results depend on the processing

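No alternative reversed a called result. In KT_H11_Cas9 the number beside inert was -4.75, -5.34 and -6.05 at minimums of 200, 500 and 1000 cells, -4.55 and -3.69 near spike-in totals of 100000 and 300000, and -3.76 in mice named LA near 300000, where the plain permutation no longer passed (adjusted p from 0.0873 to 0.16). The studentised one passed in all but the 1000-cell setting (adjusted p = 0.182) and was not run for LA mice. In KT_H11_LSL-Cas9 the plain test did not pass near 300000 (-1.67). Between Cas9 groups the value at 1000 cells was -4.03 and did not pass either test (adjusted p = 0.0741 and 0.202). Leaving out each mouse gave -4.19 to -4.05 and -1.72 to -1.63, with every call kept. Pairs called in KT_H11_Cas9 went from 0 to 16 when studentised, to 1, 5 and 7 at the 3 size minimums, to 1 with same-guide constructs and to 1 near 100000, and in KT_H11_LSL-Cas9 from 16 to 1 near 300000. Interactions called went from 0 to 1 when studentised (KT_H11_Cas9) and to 1 at 500 cells (KT_H11_LSL-Cas9). Place differences of -1.06 and -0.68 passed when studentised, also with same-guide constructs kept. Size beside inert did not pass in KT_H11_Cas9 with at least 10 tumours (-0.59), same-guide constructs (-0.36), medians (-0.46) or near 100000 (-0.57) or 300000 (-0.39). Under 2 of these mice had 5 such tumours at 200 cells, so no value was had there. In KT_H11_LSL-Cas9 it did not at 200 cells (-0.058), with at least 10 tumours (-0.27), same-guide constructs (-0.24), medians (-0.29) or mice weighted by tumours (-0.28). In KT it passed at 0.19 with same-guide constructs. Partner-matched size passed in both Cas9 groups under every alternative. Against KT it did not in KT_H11_Cas9 near 100000 (-0.44) or weighted (-0.47). The cause of these changes was not tested. Of 153 values under alternatives, 117 were counted as unchanged. That count includes values that were uncalled in both settings even where the sign changed, and numbers of calls that changed little. No KT_H11_LSL-Cas9 mouse is near 100000. No paired analysis was possible because replicate numbers were given in accession order and pair no mice.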

Other observations

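Constructs with the Pcna guide in both places, left out above, numbered 622 in KT, 10 in KT_H11_Cas9 and 14 in KT_H11_LSL-Cas9. Relative to Pcna beside an inert guide and to KT they lay at 0.36-fold (log2 -1.47 ± 0.44) in KT_H11_Cas9 and at 0.265-fold (-1.91 ± 0.60) in KT_H11_LSL-Cas9 (label permutation p = 0.0842 and 0.00803, unadjusted). Over constructs with the same inert guide in both places they lay at log2 -5.47 ± 0.52 and -3.30 ± 0.59. With so few tumours these values have wide errors, and constructs with a repeated guide were left out by rule from every comparison above.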
